A study of Mus musculus with 4 samples.

Results

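The secreted Wnt antagonists described here are Sfrp1, Sfrp2, Sfrp4, Frzb, Dkk2, Dkk3 and Wif1, 7 genes of the 31053 genes listed in the data (20506 of them with at least 1 UMI), chosen by name and followed through each cell class and each day. The data are single-cell RNA-sequencing libraries of carotid arteries from male C57BL/6 mice that were 11 weeks old at wire injury. In this procedure a wire drawn through the vessel strips its endothelial lining, and the deep form used here also disrupts the internal elastic lamina. Each of the 4 time points, day 0 (uninjured) and days 3, 7 and 14 after injury, is 1 library made from vessels of several pooled mice. All mice were of the same strain, vessels with a thrombus were left out, and vessels of every time point were digested and cleared of dead cells in the same way. The values are counts of unique molecular identifiers (UMIs), which stand for captured RNA molecules, read at the 3′ end of transcripts. With 1 library a day there is no replicate, so no test between days was possible. Intervals given below are exact 95% intervals for counting error alone.

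Wnt ligands are secreted lipid-modified proteins that bind Frizzled receptors, together with Lrp co-receptors in the branch that stabilises β-catenin. Secreted antagonists act outside the cell in different ways. The secreted Frizzled-related proteins, encoded by Sfrp1, Sfrp2, Sfrp4 and Frzb, carry a Frizzled-like domain and bind Wnt ligands, Wif1 binds Wnt ligands through a domain of its own, and Dickkopf proteins such as Dkk2 bind the Lrp co-receptors. Dkk3 belongs to the Dickkopf family by sequence, but its action on Wnt signalling is less settled.

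Cells of the 4 libraries were clustered together, without the members or the other Wnt genes among the genes that formed the clusters, and clusters were named for resemblance by marker genes. Of 6161 barcodes, 5621 were kept, 329, 1508, 2693 and 1091 of days 0, 3, 7 and 14, and the 4 libraries held 2672722, 18989081, 27973418 and 13329564 UMIs. The fibroblast-like class held 240, 212, 201 and 538 cells in the same order of days, the smooth muscle-like class 9, 79, 71 and 73, and the endothelial-like class 12, 82, 68 and 27. Each class held its own defining markers: Dcn, a matrix proteoglycan of fibroblasts, stood at 10083 CPM (counts per 1000000 UMIs of a class) in fibroblast-like cells, Acta2, smooth muscle actin, at 9808 CPM in smooth muscle-like cells, and Pecam1, an endothelial adhesion protein, at 928 CPM in endothelial-like cells. Markers of other classes were read as well. Smooth muscle-like cells held Dcn at 886 CPM and the fibroblast marker Col1a1 at 4335 CPM (17445 CPM in fibroblast-like cells). Acta2 stood at 753 CPM in endothelial-like and 350 CPM in fibroblast-like cells. Unnamed cells (824 cells, 14.66%) came from clusters that the naming rule left out, among them a shallow one of 340 cells that held 9 fibroblast markers, and from 2 clusters led by genes of dividing cells, whose cells were named by their neighbours where these were of 1 class. At day 0 the smooth muscle-like and endothelial-like sums rest on 9 and 12 cells and are given as values only, with no comparison.

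The libraries share cell barcodes. In all, 217 barcode sequences occurred in more than 1 library, 152 of them in the libraries of days 0 and 3 and 64 in those of days 7 and 14. Of the 152, 104 were deeper at day 0, by a median UMI ratio of 21.5, and 48 were deeper at day 3, by a median ratio of 109. A barcode was called a shallow copy where its partner in another library held at least 5 times as many UMIs. Such copies made up 95 of the 212 fibroblast-like cells of day 3, but 1.64% of their UMIs, against 5, 0 and 6 fibroblast-like cells of days 0, 7 and 14. In fibroblast-like and smooth muscle-like cells, levels from summed UMIs were therefore little changed by leaving the copies out of the counts, whereas shares of cells and the clustering itself were open to them. The endothelial-like class was small enough for levels to move as well, and this is given beside its values. Results are given with all barcodes kept. Calls of the fibroblast-like and smooth muscle-like classes that changed when copies were removed before clustering are given with their values after the calls.

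The 7 genes divided by class, and not evenly. Over all kept cells, fibroblast-like cells held 94.1% of the Sfrp4 UMIs, 90.1% of the Sfrp1 UMIs, 88.3% of the Sfrp2 UMIs, 73.1% of the Dkk3 UMIs and 69.7% of the Dkk2 UMIs. These shares pool the days, and day 14 weighs most in several. For Sfrp1 the fibroblast-like share was 90.6%, 59.7%, 71.0% and 98.96% on days 0, 3, 7 and 14, and for Sfrp2 99.1%, 77.8%, 79.5% and 95.2%. The Dkk2 share rested on day 14, when fibroblast-like cells held 97.7% of its UMIs. On days 3 and 7 they held 36.8% and 25.3%, against 42.5% and 65.9% in endothelial-like cells. The day 0 library held 14 Dkk2 UMIs, 9 in 2 endothelial-like cells and 5 in 1 fibroblast-like cell, too few to compare. Dkk3 lay mostly in fibroblast-like cells except at day 3, when 53.8% of its UMIs lay in smooth muscle-like cells and 43.2% in fibroblast-like cells. Wif1 lay elsewhere, with 80.3% of its UMIs in smooth muscle-like cells and 15.5% in fibroblast-like cells. Frzb was split between smooth muscle-like cells (49.2%) and fibroblast-like cells (41.8%) over all days, but not evenly by day. Its fibroblast-like share was 90.8%, 24.2%, 44.9% and 44.8% on days 0, 3, 7 and 14, and its smooth muscle-like share 6.15%, 74.3%, 49.2% and 32.0%, with 22.9% in unnamed cells at day 14. Endothelial-like cells held 24.6% of the Dkk2 UMIs and 6.38% of the Sfrp1 UMIs, the latter being 7.06%, 29.2%, 19.2% and 0.244% on days 0, 3, 7 and 14. These shares depend on how many cells of each class were captured, so levels in CPM are used from here on. A level is compared between classes or days for the same gene, never between genes.

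**Figure D1:**
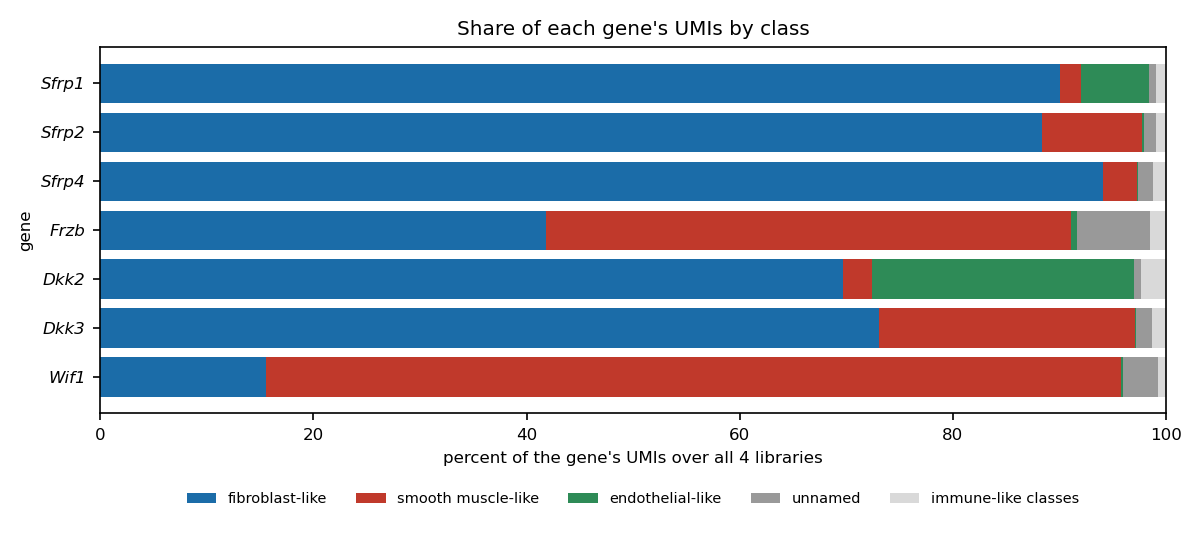
Horizontal stacked bars give, for each gene, the percent of its UMIs over all 4 libraries that lay in each non-immune class, in unnamed clusters and in the immune-like classes. Sfrp1, Sfrp2 and Sfrp4 lay mostly in fibroblast-like cells, Wif1 in smooth muscle-like cells (80.3%), and Frzb in both.

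In immune-like cells, which should lack these genes, counts were low, with 0 Sfrp1 UMIs at day 3 in any immune-like class. At day 7 a Sfrp2 UMI was found in 21.4% of monocyte/macrophage-like cells (median 9345 UMIs per cell) and 22.5% of neutrophil-like cells (median 3040 UMIs), against 84.6% of fibroblast-like cells (median 17597 UMIs). The Sfrp2 level in the same monocyte/macrophage-like cells was 24.5 CPM, compared with 2759 CPM in fibroblast-like cells. Over all days Sfrp2 was 18.0 CPM in monocyte/macrophage-like and 39.2 CPM in neutrophil-like cells, its highest level in an immune-like class. For the other 6 genes the level in monocyte/macrophage-like cells of days 3, 7 and 14 was at most 7.41 CPM, reached by Sfrp4 at day 14. Each member is read against its own level in these cells.

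Among the ligand-binding antagonists, Sfrp1 was higher at days 7 and 14 than at days 0 and 3 in fibroblast-like cells. Its level on days 0, 3, 7 and 14 was 34.5, 29.5, 170 and 365 CPM, from 77, 135, 830 and 3250 UMIs in 16, 23, 66 and 249 cells. Days 0 and 3 had overlapping counting intervals, and days 7 and 14 stood above both. Days 3, 7 and 14 gave ratios to day 0 of 0.855 (0.641 to 1.15), 4.94 (3.91 to 6.32) and 10.6 (8.45 to 13.5), and day 14 was 2.14 times day 7 (1.99 to 2.32). With shallow copies removed before clustering, day 14 was 1.63 times day 7 (1.499 to 1.77), no longer past 2-fold. The single cell with the most Sfrp1 at day 14 held 72 UMIs, 2.22% of the sum, so the level was spread over many cells. With every cell thinned to 1000 UMIs, 1.43%, 3.79%, 8.33% and 20.4% of fibroblast-like cells of days 0, 3, 7 and 14 held a Sfrp1 UMI, compared with 6.67%, 10.8%, 32.8% and 46.3% without thinning. Thinning left out 30, 80, 9 and 37 shallower cells of the 4 days.

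Sfrp2 was read in most fibroblast-like cells on every day. Its level on days 0, 3, 7 and 14 was 3197, 1600, 2759 and 2636 CPM, from 7136, 7329, 13439 and 23458 UMIs. Day 3 was the low point, at 0.501 of the day 0 level (0.485 to 0.517), just short of a 2-fold change. Days 7 and 14 were at 0.863 (0.839 to 0.888) and 0.825 (0.803 to 0.847) of it. The day 3 value moved with the handling of copies: with copies left out under the same labels the ratio was 0.491, and with copies removed before clustering 0.331, both past 2-fold. The thinned share of cells with a Sfrp2 UMI was 62.9%, 56.8%, 63.0% and 63.9% on days 0, 3, 7 and 14.

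Sfrp4 was higher after injury on each day read in the fibroblast-like class as a whole. In fibroblast-like cells its level on days 0, 3, 7 and 14 was 314, 833, 670 and 624 CPM, from 700, 3815, 3266 and 5553 UMIs, and none of the counting intervals after injury met that of day 0. Its level was 2.66 (2.45 to 2.88), 2.14 (1.97 to 2.32) and 1.99 (1.84 to 2.16) times that of day 0 on the 3 days after injury, the last just under 2-fold. The day 3 ratio was 1.76, under 2-fold, when shallow copies were removed before clustering. The thinned share of cells with a Sfrp4 UMI was 16.2% at day 0 and 45.5%, 37.0% and 31.5% at days 3, 7 and 14. A single cell held 11.0% of the day 3 sum and another 14.5% of the day 7 sum.

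Frzb, which encodes the antagonist also called secreted Frizzled-related protein 3, peaked at day 7 in fibroblast-like cells. Its level was 26.4, 23.4, 98.5 and 23.9 CPM on days 0, 3, 7 and 14, from 59, 107, 480 and 213 UMIs. Day 7 stood above the other days, whose intervals overlapped one another. Against day 0, day 7 gave a ratio of 3.73 (2.84 to 4.97) and day 14 one of 0.906 (0.676 to 1.23), and day 14 was at 0.243 of day 7 (0.206 to 0.286). The size of this peak changed with the handling of copies: with shallow copies removed before clustering day 7 was still the highest day, at 39.2 CPM, but stood at 1.45 times day 0, not past 2-fold, and day 14 at 0.253 of it, past 2-fold lower.

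Wif1, whose product holds Wnt ligands in the extracellular space, was low in fibroblast-like cells. On days 0, 3, 7 and 14 it had 1, 46, 20 and 17 UMIs there, or 0.448, 10.0, 4.11 and 1.91 CPM. The ratio of day 3 to day 0 was 22.4 with an interval of 3.83 to 905, which is as wide as a count of 1 makes it. The 46 UMIs of day 3 lay in 31 cells, none with more than 4, against a level of 0.194 CPM in monocyte/macrophage-like cells of that library. Smooth muscle-like cells of the same library held 250 Wif1 UMIs.

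Of the Dickkopf genes, Dkk2 was higher on each day after injury in fibroblast-like cells, and Dkk3 was not. Dkk2 stood at 2.24, 8.52, 13.5 and 60.9 CPM on days 0, 3, 7 and 14, from 5, 39, 66 and 542 UMIs in 1, 4, 15 and 79 cells. Day 14 stood above each earlier day, and at days 0 and 3 the sum rested on a handful of cells. Its level was 3.80 (1.497 to 12.4), 6.05 (2.47 to 19.2) and 27.2 (11.6 to 84.1) times that of day 0, and day 14 was 4.50 times day 7 (3.48 to 5.90). With shallow copies removed before clustering, the ratios to day 0 were 6.15 at day 3 and 11.4 at day 7. At day 3, 23 of the 39 UMIs lay in 1 cell. Without that cell the day 3 level was 3.53 CPM, no longer past 2-fold against the 2.24 CPM of day 0. The 5 UMIs of day 0 lay in 1 cell as well. Without the top cell of both days, 16 UMIs at day 3 stood against 0 at day 0, too few to compare.

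Dkk3 was 252, 125, 219 and 229 CPM in fibroblast-like cells of days 0, 3, 7 and 14, from 563, 572, 1069 and 2034 UMIs. Only day 3 was past 2-fold, at 0.495 of day 0 (0.440 to 0.557). On the log2 scale with 10 CPM added this was -0.96, against -0.31 and not past 2-fold without the mixed sub-cluster N6, described with the sub-clusters. Days 7 and 14 were at 0.870 (0.785 to 0.965) and 0.906 (0.825 to 0.997). Dkk3 and Sfrp2 both had their lowest fibroblast-like level at day 3. The thinned share of cells with a Dkk3 UMI was 23.8%, 18.9%, 19.8% and 21.8%, with counting intervals that overlapped on all 4 days.

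**Figure D2:**
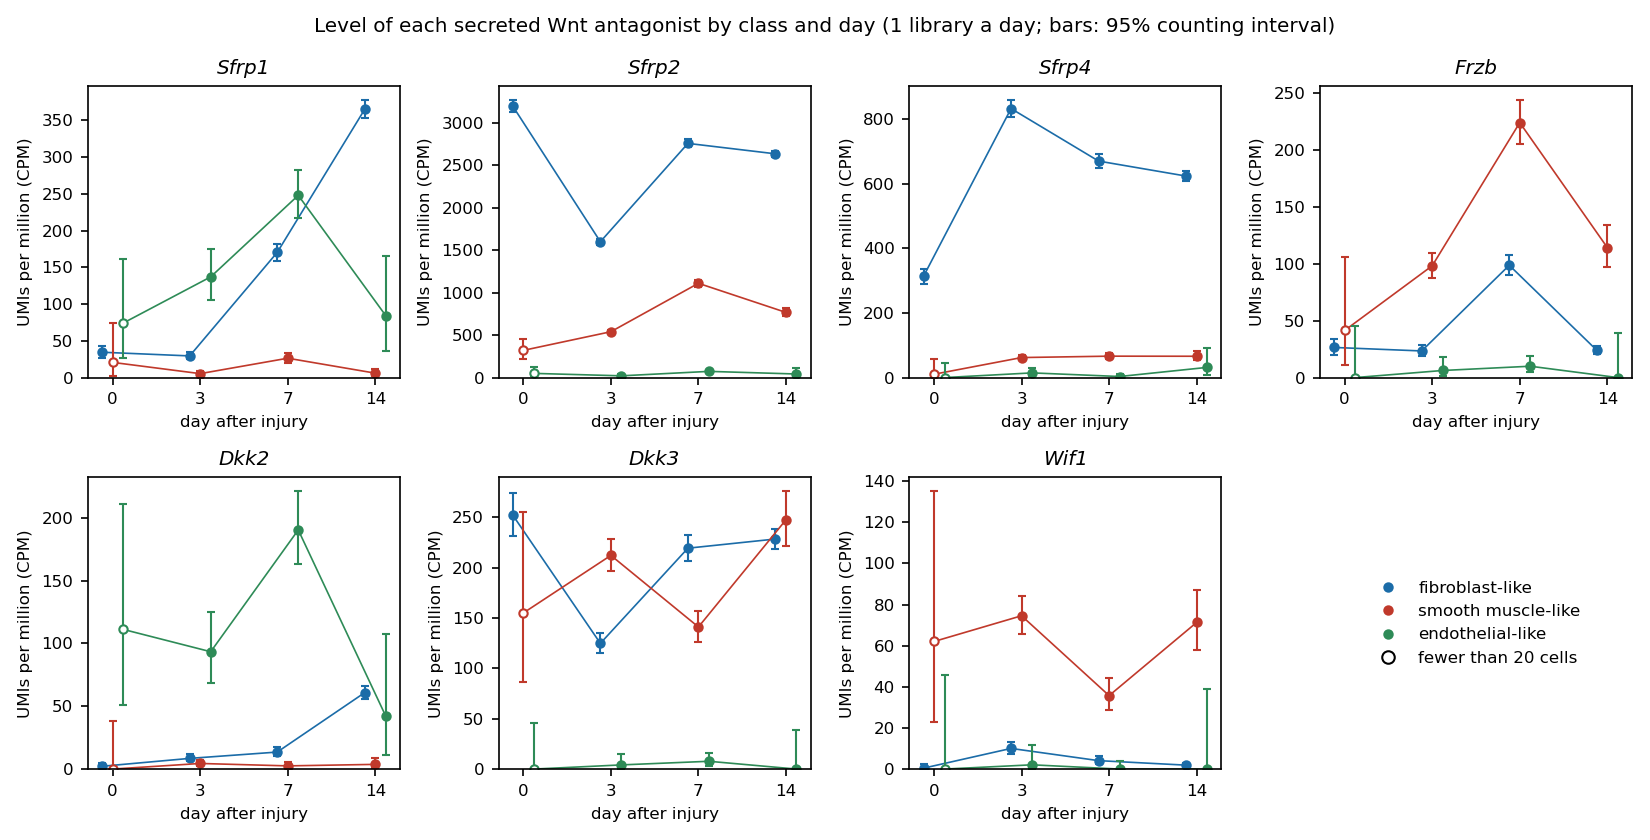
Each panel plots 1 gene, with the day after injury on the x axis and the level in CPM on the y axis, coloured by class; bars are 95% counting intervals and open points are sums of fewer than 20 cells. Sfrp1 and Dkk2 in fibroblast-like cells were highest at day 14, and Frzb peaked at day 7. Wif1 was higher in smooth muscle-like than in fibroblast-like cells on each day after injury.

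A member was called higher or lower between 2 days where its level differed at least 2-fold, its counting interval lay outside 1 and the 2 sums held at least 20 UMIs. In fibroblast-like cells, 3 members were higher at day 3 than at day 0 (Sfrp4, Dkk2 and Wif1), beside 9.52% of the 10891 genes compared, and 1 was lower (Dkk3), beside 9.85%. Without its top cell of day 3, Dkk2 was not past 2-fold there, and without the top cell of both days it had too few UMIs to compare. At day 7, 5 of 7 were higher than at day 0 (all but Sfrp2 and Dkk3), beside 9.80% of 11044 genes, and 0 were lower, beside 7.79%. At day 14, 2 were higher (Sfrp1 and Dkk2), beside 7.34% of 11630 genes, 0 were lower, beside 4.14%, and Wif1 had too few UMIs to compare. These 3 comparisons share the day 0 library. The median log2 ratio of the 7 members to day 0, with 10 CPM added to each level, was -0.13, 0.94 and 0.19 on days 3, 7 and 14 (-0.06, 0.41 and 0.10 with copies removed before clustering), beside medians of -0.05, -0.02 and -0.01 over all genes compared.

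Between later days, day 7 against day 3 gave 2 members higher, Sfrp1 and Frzb, beside 6.13% of genes, and 1 lower, Wif1, beside 3.84%. Dkk2, not called with all cells, was 3.05 times its day 3 level (1.71 to 5.72) without the top cell of each day, past 2-fold. Day 14 against day 7 gave 2 higher, Sfrp1 and Dkk2, beside 5.67%, and 2 lower, Frzb and Wif1, beside 5.01%. With shallow copies removed before clustering, the fibroblast-like class held 219, 70, 91 and 387 cells. Calls against day 0 were then 2 higher (beside 11.3% of genes) and 2 lower (12.0%) at day 3, 3 higher (11.0%) and 0 lower (9.46%) at day 7, and 2 higher (7.97%) and 1 lower (5.34%) at day 14. Wif1 at day 7 then had too few UMIs to compare, 7 against 1. Day 7 against day 3 gave 2 higher (beside 7.27% of genes), Sfrp1 and Dkk3 (2.27), and 0 lower (4.01%), with Frzb at 1.53 and Wif1 at 0.513, neither called. Day 14 against day 7 gave 1 higher (5.92%), Dkk2, and 1 lower (5.96%), Frzb, with Sfrp1 at 1.63 and Wif1 at too few UMIs. In that form Sfrp1 was 8.21 and 13.4 times day 0 at days 7 and 14, and Dkk2 was 34.4 times day 0 at day 14.

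**Figure D3:**
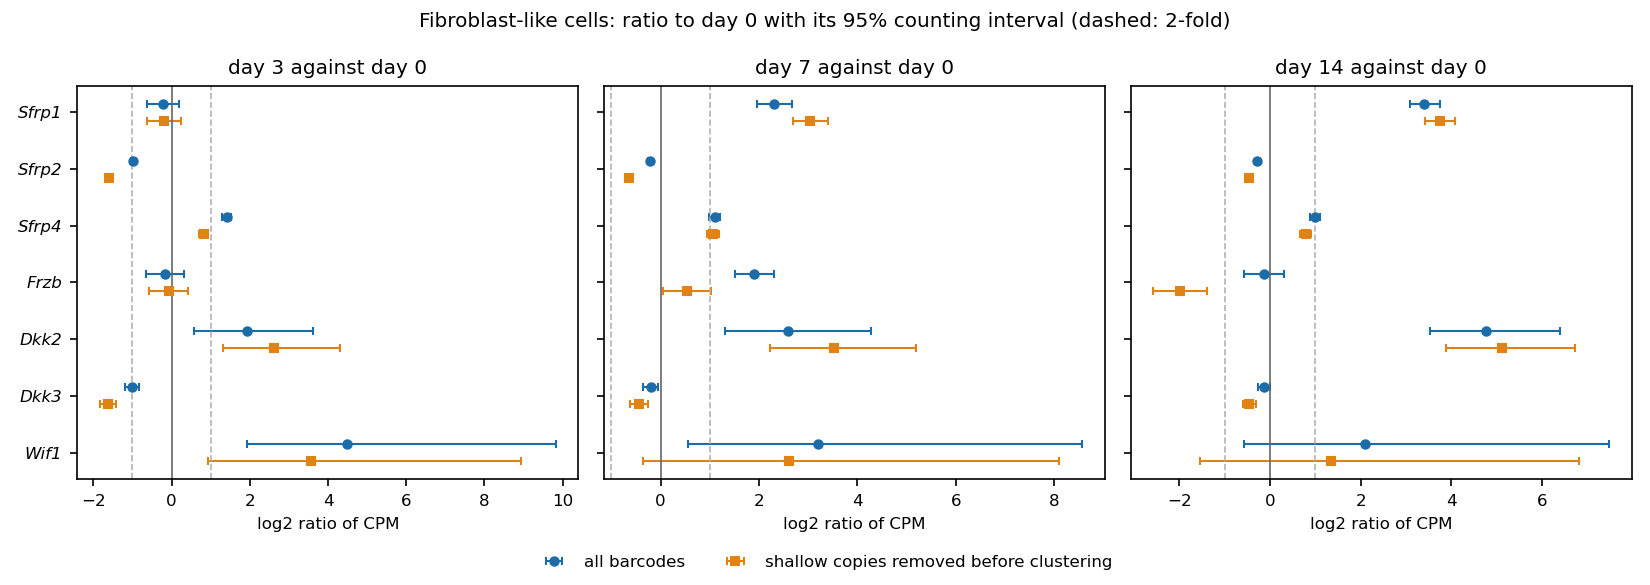
Points give the log2 ratio of CPM to day 0 in fibroblast-like cells with its 95% counting interval (x axis), by gene (y axis) and day (panels), with all barcodes (circles) and with shallow copies removed before clustering (squares); dashed lines mark 2-fold. Sfrp1 at days 7 and 14 and Dkk2 at day 14 lie beyond 2-fold in both, whereas Frzb at days 7 and 14 and Sfrp2 and Sfrp4 at day 3 lie on different sides of a line.

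Different clusters supplied the most fibroblast-like cells on different days. Cluster 0 held 175 of the 240 cells of day 0, cluster 3 held 93 of the 212 cells of day 3 (91 of them shallow copies), and cluster 7 held 127 of 201 cells of day 7 and 366 of 538 cells of day 14. In the summed values, other cells and other levels in like cells cannot be told apart. The non-immune cells were therefore clustered again on their own into 7 sub-clusters, numbered N0 to N6. N0 (208 cells, led by AI507597, Rbp4 and Lamc3) held 76.3% of the fibroblast-like UMIs of day 0, and N1 (405 cells, led by Cpxm2, Wisp2 and Eln) held 29.1%, 69.6% and 42.1% of those of days 3, 7 and 14. N4 (214 cells, led by Apod, C1qtnf3 and Cilp) came mostly from day 14, with 185 cells. N2 (295 cells, led by C7 and Gsn) was shallow, with a median of 1052 UMIs, N3 (167 cells) was endothelial-like and N5 (170 cells, led by Myh11) smooth muscle-like. N6 (153 cells, led by Saa3, Lcn2 and Spp1, with Top2a, a gene of dividing cells) mixed cells of 3 classes, 23 of them endothelial-like, 59 smooth muscle-like and 71 fibroblast-like, and held 64.5% of the fibroblast-like UMIs of day 3. Its cells were deep, with a median of 50134 UMIs, and its median doublet score was 0.0814, against 0.0316 to 0.0646 in the other sub-clusters. The part of doublets in its values was not tested.

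Dkk2 was spread unevenly over the sub-clusters. Its level over all days was 220 CPM in N3 and 120 CPM in N4, with 0 UMIs in N0, N2 and N5, counts of 0 that allow up to 1.16, 3.51 and 0.904 CPM. At day 14, 38.4% of the 185 N4 cells held a Dkk2 UMI, and N4 carried 94.1% of the fibroblast-like Dkk2 UMIs of that day. In N1, the other large fibroblast-like sub-cluster of day 14, Dkk2 was at 7.996 CPM. N4 held 12 cells at day 0, 3 at day 3 and 14 at day 7, where Dkk2 stood at 21.1, 166 and 86.0 CPM from 5, 23 and 35 UMIs. Its level within N4 before day 14 thus rests on few cells. At day 14 Dkk2 in N4 was 128 CPM, from 510 UMIs. That was 1.49 times day 7 (1.06 to 2.16), not past 2-fold, and 6.06 times day 0 (2.58 to 18.7). The whole fibroblast-like class gave 4.50 and 27.2.

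Sfrp1 was shared mainly between N4 and N1 at day 14. On earlier days N0 held 49.4% of its fibroblast-like UMIs at day 0 and the mixed N6 78.5% at day 3. At day 7, N1 held 52.4% of them and N6 35.9%. At day 14, 57.9% of the fibroblast-like Sfrp1 UMIs lay in N4 (472 CPM, in 71.9% of its cells) and 38.7% in N1 (336 CPM, in 44.9% of its cells). Within N1, which had at least 49 cells on days 3, 7 and 14, Sfrp1 was 12.0, 127 and 336 CPM on those days, a ratio of 10.6 between days 3 and 7 (6.46 to 18.7) and 2.63 between days 7 and 14 (2.36 to 2.94). Its higher level at days 7 and 14 was thus also seen within a single sub-cluster. In N0, the sub-cluster of most day 0 cells, Sfrp1 was 22.3 CPM at day 0 and 6.66 CPM in the 46 cells of day 14, a ratio of 0.299 (0.0917 to 0.760). At day 14, 58 of the 79 fibroblast-like cells with a Dkk2 UMI also held Sfrp1, which was found in 249 of all 538 cells. Both counts depend on the depth of a cell.

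Frzb was low in N4, at 1.47 CPM, where Dkk2 and Sfrp1 were high, and stood at 71.8 CPM in N1 and 40.4 CPM in N0. N1 held Sfrp1 as well, at 200 CPM over all days. At day 7, 85.6% of the fibroblast-like Frzb UMIs lay in N1, and within N1 its level was 27.0, 120 and 43.7 CPM on days 3, 7 and 14. Day 7 was 4.46 times day 3 (3.17 to 6.46) and day 14 was 0.363 of day 7 (0.301 to 0.436). The day 7 peak was thus present within N1 as well as in the whole class.

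Sfrp2, Sfrp4 and Dkk3 were broader. Sfrp2 was 3420 CPM in N0, 3328 CPM in N1 and 1621 CPM in N4. Sfrp4 was 312 CPM in N0, 821 CPM in N1 and 658 CPM in N4. Within N1 it was 1782, 614 and 675 CPM on days 3, 7 and 14, with day 7 at 0.345 of day 3 (0.325 to 0.366). Against day 0, Sfrp4 at day 14 was 1.24 times as high in N0 (1.06 to 1.45) and 1.27 times in N4 (1.05 to 1.57), neither past 2-fold. In the shallow N2 it was 2.84 times as high (2.32 to 3.51). Day 7 was past 2-fold against day 0 in N0 (2.42), N4 (3.95) and N2 (2.48), from 5, 14 and 21 cells of day 7. Dkk3 was 350 CPM in N0, 264 CPM in N1 and 118 CPM in N4. Within N1, Dkk3 was 203, 240 and 307 CPM on days 3, 7 and 14, and Sfrp2 was 2500, 3151 and 3750 CPM. Neither reached a 2-fold change there. In N4, with 12 cells at day 0, both were past 2-fold higher at day 14 than at day 0. The ratio was 8.69 for Sfrp2 (6.52 to 11.8) and 2.89 for Dkk3 (1.56 to 6.05). The same ratios were 0.665 and 1.41 in N0 and 1.39 and 1.67 in N2, none past 2-fold. In N6, which supplied most fibroblast-like UMIs of day 3, Sfrp2 was 915 CPM and Dkk3 104 CPM on that day. Without N6 the log2 ratio of day 3 to day 0 in the whole class, with 10 CPM added, was -0.45 for Sfrp2 (-0.99 with it) and 2.30 for Sfrp4 (1.38 with it). The shallow N2 gives no comparison of day 3, since shallow copies made up 93 of its 113 cells of that day and held 240 of its 284 Sfrp2 UMIs and 21 of its 33 Dkk3 UMIs.

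**Figure D4:**
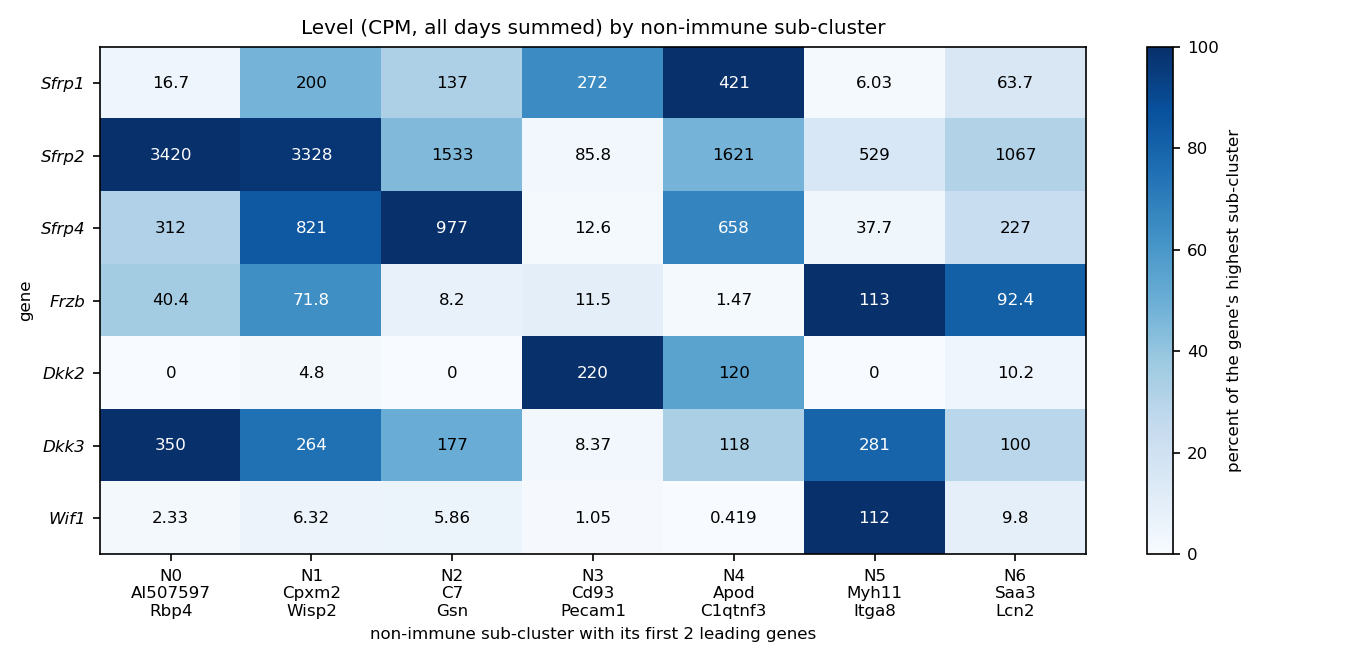
The map gives the level of each gene (y axis, CPM over all days, printed in each cell) in the 7 non-immune sub-clusters (x axis, with their first 2 leading genes), coloured by the percent of the gene's highest sub-cluster. Dkk2 is highest in N3 (220 CPM) and N4 (120 CPM), Wif1 in N5 (112 CPM), and Frzb is at 1.47 CPM in N4.

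Smooth muscle-like cells carried Wif1 and Frzb. Wif1 on days 0, 3, 7 and 14 was 62.0, 74.5, 35.7 and 71.3 CPM, from 6, 250, 84 and 95 UMIs. The day 7 level was the lowest of the 3 days after injury, at 0.479 of day 3 (0.370 to 0.616). Against fibroblast-like cells of the same library, the Wif1 level in smooth muscle-like cells was 7.42 (5.40 to 10.4), 8.70 (5.29 to 15.0) and 37.3 times as high on days 3, 7 and 14. Removing shallow copies before clustering gave 93.1, 50.3 and 72.9 CPM in smooth muscle-like cells on these days. It gave 5.51, 2.83 and 1.19 CPM in fibroblast-like cells, from 20, 7 and 8 UMIs, a wider gap on each of them. Frzb in smooth muscle-like cells was 41.4, 98.1, 224 and 114 CPM on days 0, 3, 7 and 14, from 4, 329, 526 and 152 UMIs. It was 4.20, 2.27 and 4.77 times the fibroblast-like level on days 3, 7 and 14. With shallow copies removed before clustering, Frzb on these 3 days was 112, 254 and 122 CPM in smooth muscle-like cells. In fibroblast-like cells it was then 25.6, 39.2 and 6.83 CPM, so the gap was wider at days 7 and 14. At day 3, 41 of 79 smooth muscle-like cells held both, with 56 holding Frzb and 46 holding Wif1.

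For these 2 genes of the smooth muscle-like class, the bases just before the gene's start are given for reference, from RefSeq on build GRCm38.p6, read 5′ to 3′ on the gene's strand. Wif1 lies on the plus strand (chr10:121033754-121034003) and Frzb on the minus strand (chr2:80447397-80447646). Capitals mark matches, on either strand, to TATAAA, the core of the TATA box, or to CTTTGA, a core motif of TCF/LEF factors, and the motifs share no bases in these windows.
Wif1: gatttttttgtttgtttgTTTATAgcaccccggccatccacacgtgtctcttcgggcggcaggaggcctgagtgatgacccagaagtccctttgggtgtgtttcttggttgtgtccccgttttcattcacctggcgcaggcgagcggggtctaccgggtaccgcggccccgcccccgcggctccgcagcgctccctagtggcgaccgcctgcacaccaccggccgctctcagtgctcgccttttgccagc
Frzb: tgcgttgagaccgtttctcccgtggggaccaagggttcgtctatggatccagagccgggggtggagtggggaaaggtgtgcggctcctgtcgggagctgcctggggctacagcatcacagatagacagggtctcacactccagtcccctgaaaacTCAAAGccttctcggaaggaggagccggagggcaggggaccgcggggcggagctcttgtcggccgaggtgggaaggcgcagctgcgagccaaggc
The Wif1 window held TATAAA on the opposite strand, and the Frzb window held CTTTGA on the opposite strand. Of 32851 promoter windows of 250 bases, 12.4% held TATAAA and 13.8% held CTTTGA on either strand. Windows for 4 of the 7 genes were matched in all; that of Dkk2 held TATAAA and that of Sfrp2 held neither motif.

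The other members in smooth muscle-like cells were Sfrp2 at 540, 1111 and 768 CPM, Dkk3 at 212, 141 and 248 CPM, Sfrp4 at 62.0, 66.3 and 66.0 CPM, Sfrp1 at 5.37, 26.4 and 6.00 CPM and Dkk2 at 4.47, 2.55 and 3.75 CPM on days 3, 7 and 14. Day 7 against day 3 gave 3 members higher, beside 4.13% of 10797 genes: Sfrp1 (ratio 4.91), Sfrp2 (2.06) and Frzb (2.28). Wif1 was the 1 lower, beside 2.62%. Day 14 against day 3 gave 0 calls, beside 6.04% of genes higher and 9.03% lower. Day 14 against day 7 gave 1, Sfrp1 lower (0.228, 0.0942 to 0.477), beside 11.2% lower and 5.84% higher. Without the top cell of each day, Frzb at day 14 was at 0.382 of day 7 (0.305 to 0.475), past 2-fold. Wif1 was then 2.22 times its day 7 level (1.57 to 3.15), also past 2-fold. The 62 Sfrp1 UMIs of day 7 lay in 14 cells, and 20 of them in 1 cell. For Sfrp4, 1 cell held 112 of 208 UMIs at day 3, 51 of 156 at day 7 and 40 of 88 at day 14, and without that cell on each day its level was 29.3, 45.6 and 37.4 CPM. With shallow copies removed before clustering, Sfrp4 at days 7 and 14 was 2.79 and 3.18 times its day 3 level, Frzb at day 14 was at 0.480 of its day 7 level, and Wif1 at day 7 was at 0.540 of its day 3 level, no longer past 2-fold.

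The mixed sub-cluster N6 supplied 59.4% and 72.7% of the smooth muscle-like UMIs of days 3 and 7, but 5.69% of those of day 14. In N5, the smooth muscle-like sub-cluster without it, Wif1 was 156, 95.7 and 74.9 CPM on days 3, 7 and 14, and the ratio of day 14 to day 3 was 0.479. Sfrp4 in N5 was 9.54, 51.9 and 63.6 CPM, a ratio of 6.67 between days 3 and 14. At day 14, 40 of its 79 UMIs in N5 lay in 1 cell, and without the top cell of each day the ratio was 4.37 (2.14 to 9.82). In the whole class, the ratio of day 14 to day 3 was 0.956 for Wif1 and 1.06 for Sfrp4. Wif1 in N6 was 10.0 CPM at day 3 and 9.52 CPM at day 7. Frzb was 101, 146 and 116 CPM in N5 and, in N6, 50.4 and 174 CPM on days 3 and 7 (ratio 3.45). None of the 3 members called higher in the whole class at day 7 against day 3 was called in N5, where Sfrp2 had a ratio of 1.20, Frzb one of 1.44, and Sfrp1 had too few UMIs to compare (9, 1 and 8 on days 3, 7 and 14). Wif1, the member called lower, was at 0.612 in N5 and was not called there, but was at 0.493 (0.336 to 0.706), past 2-fold, without the top cell of each day.

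Endothelial-like cells held Dkk2 and Sfrp1. Dkk2 was 111, 93.4, 190 and 42.1 CPM on days 0, 3, 7 and 14, from 9, 45, 172 and 4 UMIs. A few cells carried these sums: the UMIs lay in 2 cells at day 0, 2 cells at day 3 (30 of the 45 in 1 cell), 19 of 68 cells at day 7 and 3 cells at day 14. With shallow copies removed before clustering, the day 0 sums rested on 6 cells and 14961 UMIs, in which Dkk2 stood at 602 CPM and Sfrp1 at 334 CPM. Against fibroblast-like cells of the same library, the Dkk2 level was 11.0 (6.99 to 17.3) and 14.1 (10.5 to 19.0) times as high on days 3 and 7. Removing shallow copies before clustering gave 78.6 against 14.3 CPM at day 3 and 227 against 26.7 CPM at day 7, lower ratios on both days. At day 14 the endothelial-like level was 0.691 of the fibroblast-like one, but 3 of the 4 UMIs lay in shallow copies. With copies left out 1 UMI remained, or 11.3 CPM and a ratio of 0.185 (0.00468 to 1.04). Sfrp1 was 74.2, 137, 248 and 84.2 CPM, from 6, 66, 224 and 8 UMIs, with 41 of the day 3 UMIs and 69 of the day 7 UMIs in 1 cell each, and at day 14 it was 56.4 CPM from 5 UMIs with copies left out. At day 7, 14 of the 68 endothelial-like cells held both genes, with 19 holding each. Endothelial-like cells were shallow, with median UMI counts of 1225, 1717, 1832 and 943, and 6.72% of their day 14 UMIs came from shallow copies. Sfrp4, Frzb, Dkk3 and Wif1 had at most 9 UMIs in this class on any day. With shallow copies removed before clustering, the endothelial-like class of day 3 held other cells, with 27 Sfrp4, 43 Dkk3 and 407 Sfrp2 UMIs (10 for Sfrp2 with all barcodes), so the low counts of these genes depend on how the class was drawn.

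The members were also set beside 84 other genes of the Wnt pathway in fibroblast-like cells, taken from lists by role. Against day 0, 7 of 49 genes with enough UMIs were higher and 8 lower at day 3, 15 of 53 were higher and 7 lower at day 7, and 10 of 58 were higher and 4 lower at day 14. The share over all genes compared was 9.52%, 9.80% and 7.34% higher and 9.85%, 7.79% and 4.14% lower. Medians over the lists were -0.08, 0.14 and 0.06 on the log2 scale. The mixed sub-cluster N6 supplied 64.5% of the fibroblast-like UMIs of day 3 and 18.3% of those of day 7. Its part in the list values of fibroblast-like cells, given here and below, was not tested.

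Of the other secreted antagonists, both genes with enough UMIs were lower at days 3 and 7, and 1 of them, Sost, at day 14. Sost, which encodes sclerostin, an antagonist that binds Lrp co-receptors, had levels of 52.9, 1.53, 1.03 and 15.6 CPM on days 0, 3, 7 and 14. Igfbp4, whose product binds insulin-like growth factors and can also inhibit Wnt signalling, stood at 5418, 2102, 2006 and 3109 CPM on days 0, 3, 7 and 14, the last at 0.574 of day 0 and not past 2-fold. In smooth muscle-like cells Sost was higher at day 14 than at day 3, at 928 against 148 CPM, a ratio of 6.27 (5.65 to 6.98). Of the membrane antagonists, Tpbg was higher than at day 0 (8.51 CPM) on all 3 days, at 49.6, 34.9 and 26.6 CPM, and Shisa3 at day 3 (ratio 4.47) and day 7 (2.71).

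Among the ligands, Wnt5a, the main ligand of the branch that does not use β-catenin, stood at 245, 79.0, 86.2 and 145 CPM on days 0, 3, 7 and 14, with ratios to day 0 of 0.322, 0.351 and 0.592, the last not past 2-fold. Wnt11 was lower on each day (ratios 0.346, 0.217 and 0.449). Wnt16 had 0 UMIs at day 0 and 19.9 CPM at day 14, at least 14.8-fold higher against a floor of 3 counts in the day 0 sum. Lgr5, a receptor for R-spondins, also had 0 UMIs at day 0 and was at least 12.8-fold higher at day 7 and at least 6.27-fold higher at day 14 against the same floor. Rspo2, an R-spondin ligand that strengthens Wnt signalling, was 7.33 times its day 0 level at day 7 (2.36 to 36.8).

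Of the Frizzled genes compared, 1 of 7, 3 of 8 and 3 of 8 were higher on days 3, 7 and 14 and 0 were lower. Fzd1 was 2.71 and 2.76 times day 0 at days 7 and 14, Fzd6 was 2.33, 8.76 and 3.01 times day 0 on the 3 days, and Fzd8 was 2.68 and 2.70 times at days 7 and 14. Of the co-receptors, 1 was higher and 1 lower at day 3, 3 higher and 0 lower at day 7, and 3 higher and 1 lower at day 14. Lrp5 was lower at day 3 (ratio 0.436, from 17 and 19 UMIs) and higher at days 7 and 14 (2.22 and 2.79), and Ror2, a receptor for Wnt5a, on all 3 days (3.03, 4.23 and 3.26), whereas Ror1 was at 0.496 of day 0 at day 14. Of the cytoplasmic core, 0, 1 and 0 of 12 genes were higher, the 1 being Dvl3 at day 7 (2.04), and 0 were lower.

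Targets of the β-catenin branch did not move in 1 direction. Of 8 compared, 2 were higher and 3 lower at day 3, 3 higher and 1 lower at day 7, and 1 higher and 0 lower at day 14. Wisp1 was 21.5, 106, 218 and 67.2 CPM on days 0, 3, 7 and 14, and Cd44, a hyaluronan receptor, was 37.2, 252, 126 and 59.3 CPM on the same days. Nkd1, a feedback inhibitor, was lower at day 3 (ratio 0.401), and its relative Nkd2 was lower at day 3 (0.284) and higher at day 7 (2.12). Axin2, a feedback inhibitor widely read as a target of the branch, was lower at day 3 (0.162) and day 7 (0.262), from 7 and 12 UMIs against 21 at day 0, and stood at 1.22 times day 0 at day 14. In smooth muscle-like cells, 4 of 42 Wnt genes were higher and 5 lower at day 14 than at day 3, beside 6.04% and 9.03% of all genes: Sost, Wnt16 (3.33), Rspo3 (3.92) and Nkd1 (2.55) were higher, and Tpbg (0.365), Pygo2 (0.406), Ccnd1 (0.216), Myc (0.360) and Cd44 (0.232) lower. Ccnd1 and Myc drive cell division, and N6, led among others by Top2a, supplied 59.4% of the day 3 sum and 5.69% of the day 14 sum. Its part in these calls was not tested.

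The genes whose pattern was most like that of each member were taken by Pearson correlation of log2(CPM + 10) over 26 class-by-day sums of at least 20 cells, among 12730 genes. The sums share libraries and the contrast between immune-like and other cells, so the values describe likeness alone. Sfrp1 was most like Igfbp3 (r = 0.91), Pthlh (0.90) and Heg1 (0.88), and Dkk2 most like Afap1l2 (0.94), Pthlh (0.93) and Edn1 (0.93), a gene of endothelial cells. Sfrp2 was most like the matrix genes Lum (0.99), Adamts2 (0.98) and Col6a1 (0.98), and Sfrp4 most like Ildr2 (0.97), Bicc1 (0.96) and Fam171b (0.96). Wif1 was most like Cav3 (0.98), a caveolin of muscle, Sema3e (0.98) and Il17b (0.97). Frzb was most like Gm6634, Arhgef17 and Usp13 (each 0.97), and Dkk3 most like Col4a5, Sema3d and Slit3 (each 0.97). Over 18 sub-cluster-by-day sums of non-immune cells the leading gene was Mapk12 for Sfrp1 (0.83), Adamts2 for Sfrp2 (0.97), Plekha4 for Sfrp4 (0.94), Fat1 for Frzb (0.87), Igfbp3 for Dkk2 (0.91), Prelp for Dkk3 (0.97) and Cav3 for Wif1 (0.95).

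Fibroblast-like cells held a median of 2, 2, 3 and 3 members on days 0, 3, 7 and 14, and a median of 1 on each day with every cell thinned to 1000 UMIs. At least 3 of the 7 genes were read in 38.8%, 43.9%, 72.1% and 74.0% of fibroblast-like cells on days 0, 3, 7 and 14. Thinned, the shares were 1.43%, 7.58%, 12.0% and 12.0%. In both forms days 7 and 14 stood above day 0.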

How the data were processed

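The files deposited by the authors give raw counts of UMIs for every gene and barcode, made with Cell Ranger, 3.0.2 per the file headers and another version per the methods. A usable mouse build was not given in the sources used here, and reads were not realigned. A barcode was kept with at least 200 genes and at most 20% mitochondrial UMIs (453 of 6161 failed). Scrublet's own threshold marked 17 barcodes, so the highest scores were removed at 0.8% per 1000 barcodes (106 barcodes, 1.72%). Log-normalised counts of 2000 variable genes, without the members and the Wnt lists, entered 30 principal components and 15 neighbours. Leiden clustering at resolution 1 (scanpy 1.11.5, igraph 0.11.9) gave 37 clusters. Non-immune cells were clustered again at resolution 0.5. A cluster was named where 3 markers of a class passed 50 CPM, 10% of cells and 3 times the lower quartile of the clusters (20 CPM added), unless its top 10 genes held more markers of another class or it was shallow (under 0.333 of its library's median depth) with fewer than 2 of its own among them. In 2 clusters led by cell cycle genes (373 and 143 cells), a cell took the class of at least 60% of its 15 nearest neighbours or stayed unnamed.

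Levels are UMIs summed over a class and day, per 1000000. Poisson intervals cover levels, Clopper-Pearson intervals shares, and conditional binomial intervals ratios, all for counting error only; PCR duplicates are removed by UMIs. Named genes were the members, Wnt-list genes of at least 50 UMIs past 2-fold and the 3 genes most like each member. Axin2 and the day 3 values of Lrp5 and Nkd2 lie outside this rule and were added after their values were seen. The ratio intervals and the 2-fold calls were checked on simulated sums that held counting error alone, without spread between cells. Clustering, naming and the marking of doublets and copies were not checked in this way. The members and all lists were chosen with earlier results of these data known. An earlier run of the same clustering at single precision assigned cells differently on another processor; double precision was then used, and values of the members had been seen by then. Alternatives covered clustering, doublets, the mitochondrial limit, thinning, the pseudocount and shared barcodes.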

Additional observations from a re-analysis of the deposited data

Results flagged for a closer look

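Frzb stood at 488 CPM in unnamed cells of day 14, above its level in each named class of at least 20 cells. These cells enter no comparison. Of the 109 UMIs, 105 lay in 1 cell.

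Sfrp1 moved in opposite directions between days 7 and 14 in the fibroblast-like and smooth muscle-like classes, with a ratio of 2.14 in the first and 0.228 in the second. The difference was not tested, since each day is 1 library, and the smooth muscle-like sums held 62 and 8 UMIs. In N5, the smooth muscle-like sub-cluster without the mixed N6, the sums held 1 and 8 UMIs, too few to compare. With shallow copies removed before clustering the fibroblast-like ratio was 1.63 and the smooth muscle-like one 0.217.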

How the results depend on the processing

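No paired analysis was possible because each day is 1 library, and for the same reason no replicate could be left out. Over 16 alternatives each, the log2 ratio to day 0 in fibroblast-like cells ranged from 2.80 to 3.57 for Sfrp1 at day 14, 1.59 to 2.74 for Sfrp1 at day 7 and 1.87 to 4.26 for Dkk2 at day 14, always positive. Frzb ranged from 0.10 to 3.14 at day 7 and from -1.14 to 1.58 at day 14, where 11 of 16 kept the sign, and Sfrp2 from -1.58 to -0.31 at day 3. Dkk2 at day 7 ranged from 0.04 to 2.17 (0.94 as reported), Wif1 at day 3 from 0.0 to 2.93 (0.94 as reported) and Dkk3 at day 3 from -1.52 to -0.27 (-0.96 as reported); the values of 0.04 and 0.0 came with thinning, and Dkk3 stood at -0.31 without the mixed sub-cluster. In all, 90 of these fibroblast-like ratios moved beyond their counting interval and 246 did not. The median over the members moved in 4 cases: at day 3 to 0.25 with the mean over cells and to 0.25 with thinning (-0.13 as reported), at day 7 to 0.23 at resolution 0.6 (0.94 as reported), and at day 14 to 1.32 with thinning (0.19 as reported). Thinned to 2000 UMIs or not thinned, 46 shares of fibroblast-like cells with a UMI moved and 10 did not. Of the 21 genes named as most like a member over classes and days, 15 remained with at least 500 UMIs asked of a gene and 5 with 1 CPM added in place of 10; over sub-clusters and days the counts were 17 and 11. In smooth muscle-like cells 17 ratios of day 14 to day 3 moved and 39 did not; without the mixed sub-cluster Sfrp4 moved to 1.90 and Wif1 to -0.99. The handling of shared barcodes, the Leiden seeds, leaving out single cells and the sub-cluster exclusions other than the mixed one were chosen after seeing the data. Depth limits Wif1 and Dkk2 in fibroblast-like cells of day 0, with 1 and 5 UMIs. The cause of these moves was not tested.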
